A study of Mus musculus with 17 samples.

Results

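The lysosomal cathepsins described here are 10 genes, Ctsa, Ctsb, Ctsc, Ctsd, Ctsh, Ctsk, Ctsl, Ctss, Ctsw and Ctsz, chosen by name from the 18262 genes of a mouse lung expression table. All 10 were listed, and all 10 passed the minimum of 0.5 FPKM in at least 4 lung libraries. FPKM is fragments per kilobase and per 1000000 reads, and here the length of a gene is its whole genomic span. The study measured bulk RNA from flash frozen lungs of C57BL/6 mice with and without a distant tumor. In tumor-bearing mice the lungs were taken 15 days after 500000 M3-9-M ffluc-mCherry cells, a rhabdomyosarcoma line, were placed in the leg muscle. The design asks how a distant primary tumor alters the lung and how a myeloid cell therapy acts there. The therapy was 8000000 IL12-GEMys, myeloid cells engineered to secrete interleukin 12. They were injected into the bloodstream 3 days before the lungs were taken, which was day 12 in tumor-bearing mice. The 16 lung libraries formed 4 groups of 4: naive mice without treatment (naive_untreated), naive mice given IL12-GEMys (naive_GEMy), tumor-bearing mice without treatment (tumor_untreated) and tumor-bearing mice given IL12-GEMys (tumor_GEMy). A further library held the injected cell product, with no replicate. No group received control cells that lack interleukin 12, so the injected cells and the interleukin 12 they secrete cannot be told apart. The labels give no age or sex and do not say whether each library is its own mouse, so p-values here reflect library-to-library spread, which may be technical.

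Cathepsins are proteases of the acidic endosome and lysosome, made as inactive precursors that are cleaved to the active enzyme as the compartment acidifies. Ctsb, Ctsc, Ctsh, Ctsk, Ctsl, Ctss, Ctsw and Ctsz encode cysteine proteases, Ctsd encodes an aspartic protease, and Ctsa encodes a serine carboxypeptidase that also protects other lysosomal enzymes. In lung they are best known from macrophages, which use them to degrade engulfed material, and from antigen-presenting cells, in which cathepsin S trims the invariant chain from MHC class II. Some have narrower roles: cathepsin C activates the granule proteases of killer lymphocytes and neutrophils, cathepsin W is found in natural killer and cytotoxic T cells, cathepsin K degrades collagen and elastin, and cathepsin H takes part in processing surfactant protein B in alveolar type 2 cells.

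The libraries held 27566842 to 36815048 assigned reads in lung and 31111318 in the product, and 8 of the 10 cathepsins rested on more than 1000 reads in every library. Ctsk had at least 536 and Ctsw at least 159 reads in each lung. Lung identity was clear from its defining markers, since Sftpc of alveolar type 2 cells averaged 4705 FPKM and Scgb1a1 of club cells 7240 FPKM in naive_untreated lungs. In tumor_untreated lungs 1 library stood apart, replicate 1, whose Ctss, Ctsw, Ctsb and Ctsz levels were the lowest of its group and near those of naive lungs. Replicate 4 of that group had 4.15% of its reads on hemoglobin genes, against 0.0735 to 1.78% in the other lungs. Results that turn on the first of these libraries are given with and without it. Replicate 1 was picked on its values of these same cathepsins, so fits without it are no independent support.

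Together the 10 cathepsins took 0.281% ± 0.00766 (SD, n = 4) of assigned reads in naive_untreated lungs, 0.310% ± 0.0160 in naive_GEMy, 0.354% ± 0.0301 in tumor_untreated and 0.331% ± 0.0102 in tumor_GEMy lungs. All 4 tumor_untreated libraries, 0.310 to 0.376%, lay above all 4 naive_untreated libraries, 0.275 to 0.292%. Per kilobase of messenger RNA, the scale on which genes can be compared, Ctsd stood first with a mean level of 384.5 reads per 1000000 and kilobase over the 16 lungs. Ctss followed at 247.5, with its place depending on the group: it averaged 143.2 in naive_untreated lungs, beside 142.4 for Ctsb and 137.9 for Ctsh with overlapping ranges, and 315.6 in tumor_untreated lungs, where its highest library reached 400.2 and the Ctsd range was 394.1 to 402.4. Then Ctsc, Ctsb, Ctsz and Ctsh formed a close group between 142.6 and 159.1, whose ranges over libraries overlapped. Ctsl averaged 90.7 and Ctsa 62.8, while Ctsk at 16.3 and Ctsw at 11.4 were the lowest, and the ranges of that last pair overlapped too. The FPKM values in the rest of the text compare 1 gene between groups, and understate Ctss, Ctsc and Ctsh against the other members because their introns are long.

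**Figure D1:**
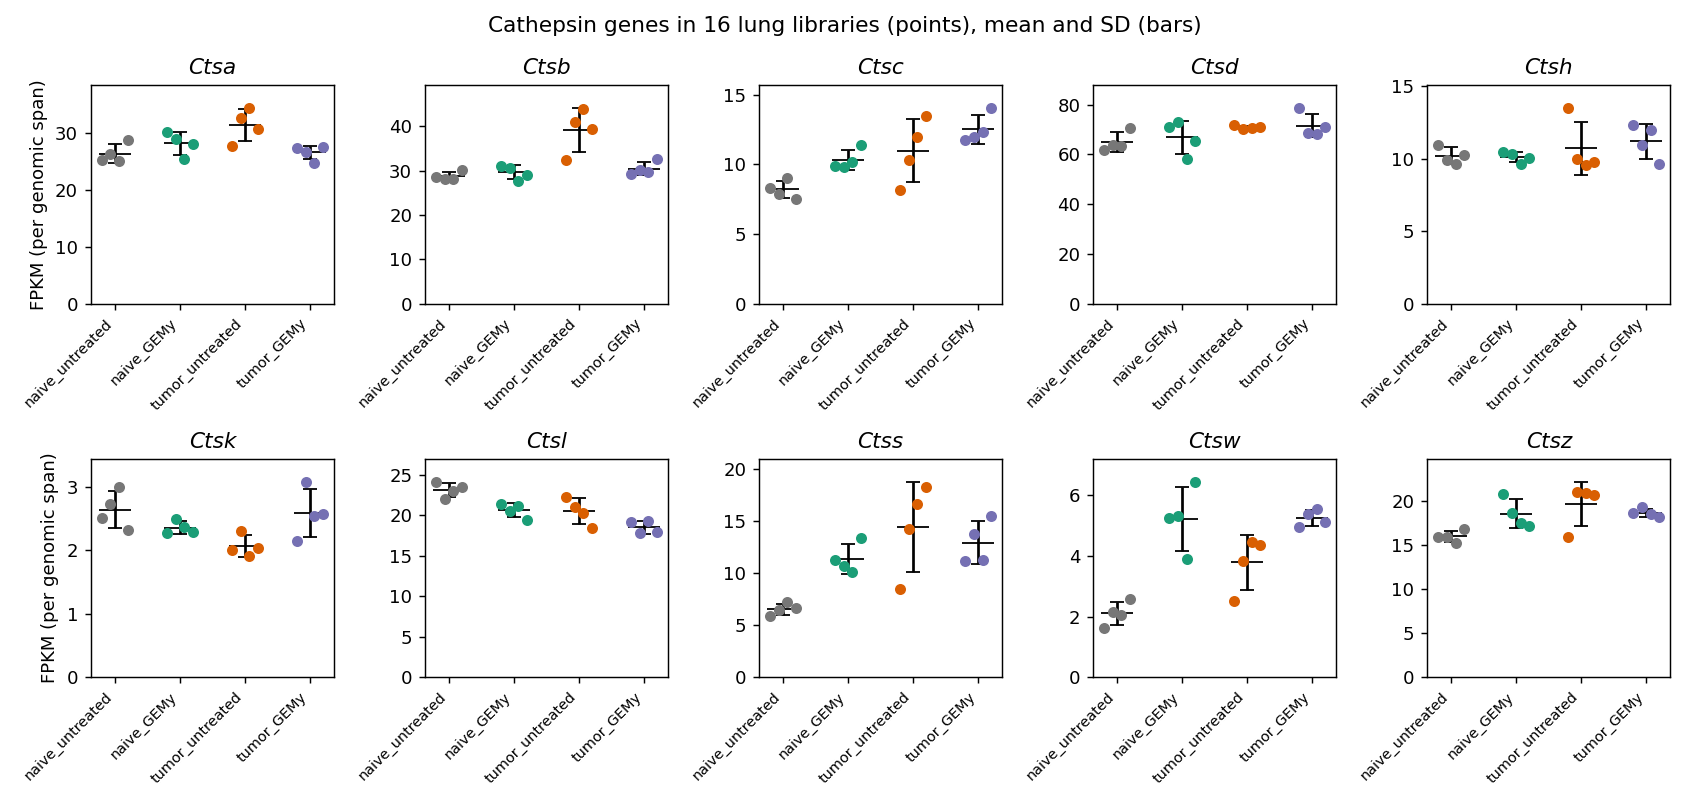
FPKM of the 10 cathepsin genes, 1 panel per gene with its own axis from 0, in the 4 lung groups of 4 libraries; points are libraries, the horizontal bar is the mean and the whiskers 1 SD. Ctss is lowest in all 4 naive_untreated libraries (5.90 to 7.19), Ctsb is highest in tumor_untreated (32.4 to 43.8), and replicate 1 of tumor_untreated, the leftmost orange point, lies apart in Ctss, Ctsw, Ctsb, Ctsz and Ctsh.

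Ctss, the cathepsin of class II antigen presentation, lies on mm10 chromosome 3 at bases 95526786 to 95556405, and Ctsk starts upstream on the same strand at 95499210, with 17398 bases between the end of Ctsk at 95509387 and the start of Ctss. The pair is shown by the 250 bases before each RefSeq transcript start (GRCm38.p6, plus strand, chr3:95526536-95526785 for Ctss and chr3:95498960-95499209 for Ctsk), because these neighbours changed in opposite directions with the tumor. Capitals in the first mark GAAACCGAAA, a match to the core of interferon-stimulated response elements (GAAA, any 2 bases, GAAA), at 21 to 12 bases before the start.
Ctss: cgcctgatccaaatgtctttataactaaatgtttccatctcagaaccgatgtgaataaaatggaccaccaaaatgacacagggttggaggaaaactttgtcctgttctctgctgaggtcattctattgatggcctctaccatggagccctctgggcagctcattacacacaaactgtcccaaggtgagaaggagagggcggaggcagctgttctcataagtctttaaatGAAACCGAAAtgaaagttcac
Ctsk: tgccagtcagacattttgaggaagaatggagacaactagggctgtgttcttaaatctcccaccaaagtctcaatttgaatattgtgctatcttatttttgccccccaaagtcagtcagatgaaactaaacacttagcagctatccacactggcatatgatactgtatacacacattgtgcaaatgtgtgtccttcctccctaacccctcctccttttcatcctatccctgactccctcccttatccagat
That core, searched on both strands, occurred in 2.98% of 32851 mouse promoter windows of equal length, and it was not in the Ctsk window. Such a match describes the sequence only.

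Ctss had the largest tumor-associated difference of the 10 genes. It measured 5.90, 6.46, 7.19 and 6.66 FPKM in the 4 naive_untreated lungs and 8.50, 14.3, 16.7 and 18.3 in the tumor_untreated lungs. Every tumor_untreated library was above every naive_untreated library, with replicate 1 the nearest to the naive range. The mean was 2.20 times higher, 14.4 ± 4.29 against 6.55 ± 0.535 FPKM (SD, n = 4 each), and limma gave a log2 difference of 1.03 ± 0.18 (SE, adjusted p = 0.000303). In whole lung, more cells that express a gene and more of its RNA per cell cannot be told apart, here and in every later comparison. Naive mice given IL12-GEMys had 11.3, 10.7, 10.1 and 13.3 FPKM, again all above the naive_untreated lungs, and Ctss rose there by a log2 of 0.75 ± 0.18 (adjusted p = 0.0148). That call was lost without replicate 1 of naive_untreated (adjusted p = 0.0542) or replicate 4 of naive_GEMy (adjusted p = 0.0600). Treated tumor-bearing lungs measured 11.1, 13.8, 11.3 and 15.5 FPKM, inside the range of the untreated tumor-bearing lungs, and differed from them by a log2 of -0.11 (95% interval -0.49 to 0.26, adjusted p = 0.793).

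The MHC class II pathway in which cathepsin S works was measured with 8 other genes: Cd74, Ifi30, Ciita, H2-DMa, H2-DMb1, H2-Aa, H2-Ab1 and H2-Eb1. In tumor_untreated against naive_untreated lungs all 8 rose, with a median log2 difference of 0.42 beside -0.05 for all genes tested. Ifi30, the lysosomal thiol reductase that unfolds antigens for cathepsins, had the largest rise among them, to 42.9 ± 7.96 from 23.4 ± 1.35 FPKM (log2 0.85, adjusted p = 3.65e-05). All 8 also rose in naive_GEMy against naive_untreated lungs (median 0.94), and 7 of the 8 rose in tumor_GEMy against tumor_untreated lungs (median 0.50). Ciita, the master regulator of class II transcription, had the largest of these rises, to 5.21 ± 0.491 from 1.92 ± 0.476 FPKM (log2 1.26, adjusted p = 1.99e-05). Ifi30 was the exception, at 43.0 ± 3.65 FPKM in tumor_GEMy beside 42.9 ± 7.96 in tumor_untreated lungs (log2 0.02, adjusted p = 0.958). The difference between Ctss and these genes was not tested. Marker genes of monocytes and macrophages moved in the same libraries: 10 of the 11 tested rose with the tumor and 7 of 11 with IL12-GEMys in naive mice. Their summed level, dominated by Lyz2, ranged over 1236 to 1362 FPKM in naive_untreated, 1410 to 1509 in naive_GEMy, 1232 to 1397 in tumor_untreated and 1306 to 1399 in tumor_GEMy lungs. Of 9 alveolar macrophage markers tested in tumor_untreated against naive_untreated lungs 1 rose and 1 fell, and their summed level in naive_untreated and tumor_untreated lungs was 145.7 to 177.3 and 151.1 to 188.6 FPKM. The part of these cells in the Ctss result was not tested.

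Ctsw, the cathepsin of cytotoxic lymphocytes (chromosome 19, 5465043 to 5468507, minus strand), showed the largest difference of the 10 genes in naive mice given IL12-GEMys. Its FPKM was 1.64, 2.14, 2.07 and 2.57 in naive_untreated lungs and 5.24, 5.31, 3.90 and 6.44 in naive_GEMy lungs, so the groups did not overlap. The rise was 2.48 times on the means and 1.13 ± 0.15 on the log2 scale (limma, adjusted p = 0.000120). Tumor_untreated lungs measured 2.51, 3.84, 4.47 and 4.37 FPKM. They were above naive_untreated lungs by a log2 of 0.70 ± 0.15 (adjusted p = 0.00201), although replicate 1 lay inside the naive range. Tumor_GEMy lungs, at 4.96, 5.38, 5.56 and 5.13 FPKM, all lay above the tumor_untreated lungs, but the difference of 0.45 ± 0.15 did not pass the threshold (adjusted p = 0.104). In tumor_GEMy against naive_untreated lungs Ctsw was higher by 1.15 (adjusted p = 3.51e-05).

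Many, but not all, markers of natural killer and cytotoxic T cells moved with Ctsw. Of 9 tested, 8 rose in tumor_untreated against naive_untreated lungs and 5 in naive_GEMy against naive_untreated lungs. The T cell genes Cd8a, Cd8b1 and Cd3e averaged 1.86, 0.613 and 1.14 FPKM in naive_GEMy lungs, beside 1.91, 0.663 and 1.13 in naive_untreated lungs. The summed level of the 9, dominated by Nkg7, was 13.7 to 21.6 FPKM in naive_untreated, 28.3 to 68.5 in tumor_untreated, 49.6 to 87.4 in naive_GEMy and 77.7 to 105.6 in tumor_GEMy lungs. The genes whose pattern over the 16 lungs was most like that of Ctsw were Nkg7, a granule membrane protein of cytotoxic lymphocytes (Pearson r = 0.983 on the log2 scale), and Prf1, perforin (r = 0.980). Both are among the 9 markers. The part of these cells in the Ctsw result was not tested.

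Ctsc, which activates granule proteases (chromosome 7, 88278085 to 88315861), was lowest in naive_untreated lungs at 8.32, 7.90, 9.03 and 7.55 FPKM. Tumor_untreated lungs spread widely, at 8.18, 10.3, 12.0 and 13.5 FPKM, with replicate 1 inside the naive range. The log2 difference of 0.38 ± 0.11 passed the threshold (adjusted p = 0.0132) and narrowly missed it without replicate 4 of tumor_untreated (adjusted p = 0.0505). Naive_GEMy lungs, at 9.90, 9.80, 10.2 and 11.4 FPKM, did not overlap with naive_untreated lungs, but their difference of 0.31 ± 0.11 missed the threshold (adjusted p = 0.121). Without replicate 1 of tumor_untreated the shared SE was 0.08 and the same difference passed (adjusted p = 0.0267), as it did with only the compared groups in the fit (adjusted p = 0.0136). Tumor_GEMy lungs, at 11.7, 12.0, 12.3 and 14.0 FPKM, averaged 1.53 times the naive_untreated mean (log2 0.58 ± 0.11, adjusted p = 0.00100). They overlapped with tumor_untreated lungs, from which they differed by 0.20 (95% interval -0.04 to 0.44, adjusted p = 0.366).

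The proteases that cathepsin C activates were followed as a list of 8: Gzma, Gzmb, Gzmk, Gzmm, Elane, Prtn3, Ctsg and Cma1. In tumor_untreated against naive_untreated lungs 5 of the 6 tested rose and 0 fell, with a median of 1.42. Elane, Prtn3 and Ctsg lay under the 0.5 FPKM minimum in all naive_untreated lungs and were tested only because of higher levels in other groups, so this count and median were partly fixed by the minimum. Gzmb, a granzyme of killer cells, rose furthest on the log2 scale, to 19.6 ± 7.82 from 1.80 ± 0.382 FPKM (log2 3.02, adjusted p = 4.90e-07). That scale, with 0.5 FPKM added, understates the changes of low genes such as Ctsg. Ctsg, the neutrophil serine protease cathepsin G, rose to 1.36 ± 0.661 from 0.0641 ± 0.0269 FPKM (log2 1.66, adjusted p = 5.22e-05). In naive_GEMy against naive_untreated lungs 3 of 6 rose (median 0.80). In tumor_GEMy against tumor_untreated lungs 1 of 6 rose, Gzma, to 26.2 ± 8.16 from 13.6 ± 4.74 FPKM (log2 0.95, adjusted p = 0.0394). Leaving out replicate 1 (adjusted p = 0.0709) or replicate 3 (adjusted p = 0.0761) of tumor_untreated ended the Gzma call, and over all 25 alternatives its adjusted p ran from 0.0263 to 0.141. Neutrophil markers rose with the tumor in 9 of 10 cases, from a summed level of 97.2 to 137.1 FPKM in naive_untreated to 1321 to 2387 FPKM in tumor_untreated lungs, and in 0 of 10 cases with IL12-GEMys in naive mice (85.1 to 136 FPKM). In tumor_GEMy against tumor_untreated lungs 2 of the 10 neutrophil markers fell and 0 rose, beside 3.72% of all genes lower and 3% higher. Their summed level in tumor_GEMy lungs was 742.3 to 2162 FPKM (median 852.1, beside 1746 in tumor_untreated lungs). Among the 10 markers Ly6g lay under the 0.5 FPKM minimum in all naive_untreated lungs and was tested because of higher levels elsewhere. The part of neutrophils in the Ctsc result was not tested.

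Ctsb, a broad-acting protease of phagocytes (chromosome 14, 63122462 to 63145923), was highest in untreated tumor-bearing mice. It measured 28.7, 28.2, 28.2 and 30.1 FPKM in naive_untreated lungs and 32.4, 41.1, 43.8 and 39.4 in tumor_untreated lungs, with no overlap, and rose by a log2 of 0.43 ± 0.08 (limma, adjusted p = 0.000580). Naive_GEMy lungs, at 31.1, 30.6, 27.7 and 29.0 FPKM, differed from naive_untreated lungs by 0.04 (95% interval -0.13 to 0.21, adjusted p = 0.836). Tumor_GEMy lungs, at 29.3, 30.2, 29.7 and 32.6 FPKM, lay back near the naive levels, and only replicate 4 reached the lowest tumor_untreated library. Ctsb fell there by 0.35 ± 0.08 on the log2 scale against tumor_untreated lungs (adjusted p = 0.0124), and tumor_GEMy against naive_untreated lungs differed by 0.08 (95% interval -0.09 to 0.25, adjusted p = 0.454). The fall did not pass the threshold when only the 8 tumor-bearing lungs entered the fit (adjusted p = 0.120). Naive_GEMy lungs were likewise below tumor_untreated lungs, by 0.39 (adjusted p = 0.00270).

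Ctsa and Ctsz, a pair of carboxypeptidases of the lysosome, both rose with the tumor. Ctsa (chromosome 2, 164832872 to 164841032) went from 25.2, 26.2, 25.1 and 28.7 FPKM in naive_untreated to 27.7, 32.6, 34.3 and 30.7 in tumor_untreated lungs, a log2 of 0.25 ± 0.08 (adjusted p = 0.0151) that was lost without replicate 3 of tumor_untreated (adjusted p = 0.0531). In tumor_GEMy lungs it stood at 27.3, 26.6, 24.8 and 27.5 FPKM, all below the tumor_untreated lungs, and the difference of -0.23 ± 0.08 missed the threshold (adjusted p = 0.0821) but passed it without replicate 1 of tumor_untreated (log2 -0.29, adjusted p = 0.0212). Ctsa in naive_GEMy lungs, 30.2, 29.0, 25.4 and 28.0 FPKM, overlapped with naive_untreated lungs (log2 0.10, adjusted p = 0.524). Cathepsin Z is found mainly in monocytes and macrophages, and its gene (chromosome 2, 174427494 to 174439039, minus strand) measured 16.0, 15.9, 15.3 and 16.8 FPKM in naive_untreated and 16.0, 21.1, 20.9 and 20.7 in tumor_untreated lungs. Apart from replicate 1 the tumor_untreated lungs were tightly grouped above the naive ones, and the rise was 0.28 ± 0.08 (adjusted p = 0.0129), or 0.38 ± 0.06 without that library (adjusted p = 0.000279). Naive_GEMy lungs, at 20.8, 18.7, 17.6 and 17.2 FPKM, did not overlap with naive_untreated lungs, yet the difference of 0.21 ± 0.08 missed the threshold (adjusted p = 0.173) and passed it without replicate 1 of tumor_untreated (adjusted p = 0.0425). Tumor_GEMy lungs held Ctsz at 18.6, 19.4, 18.5 and 18.2 FPKM, also above all naive_untreated lungs (log2 0.22, adjusted p = 0.0506). That difference passed the threshold without replicate 1 of tumor_untreated (adjusted p = 0.0100), replicate 4 of that group (adjusted p = 0.0462) or replicate 1 of naive_GEMy (adjusted p = 0.0414), which enter only the shared spread. It also passed under median of ratios (log2 0.32, adjusted p = 0.0127), as reads per 1000000 (adjusted p = 0.0479) and with only the compared groups in the fit (adjusted p = 0.00928).

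Ctsd, the aspartic protease and the most abundant member (chromosome 7, 142375910 to 142387827, minus strand), had 0 called differences in the 6 pairs of groups in limma, and 0 with an unadjusted p under 0.05. Under scaling by median of ratios tumor_GEMy against naive_untreated lungs passed (log2 0.24, adjusted p = 0.0393). Its levels were 61.6, 63.9, 63.5 and 70.8 FPKM in naive_untreated and 70.9, 73.1, 58.3 and 65.2 in naive_GEMy lungs. In tumor-bearing mice they were 71.8, 70.3, 70.6 and 71.1 without and 78.5, 68.8, 68.1 and 71.1 FPKM with IL12-GEMys. The groups overlapped, and the tumor_untreated difference of 0.13 from naive_untreated lungs had a 95% interval of -0.03 to 0.29 (adjusted p = 0.176). The windows before the Ctsd start and the second listed Ctsa start held the palindrome TCACGTGA, the core of the element read by the lysosomal regulator TFEB. It was not in the windows of Ctsc, Ctsk, Ctsl, Ctss and Ctsz. Nor was it in the window before the first listed Ctsa start, which adjoins the Ctsa gene start given above. The 250 bases before the Ctsd start (GRCm38.p6, minus strand, chr7:142387828-142388077) and before the second listed Ctsa start (plus strand, chr2:164833523-164833772) are shown with it in capitals, 99 to 92 and 13 to 6 bases before the start.
Ctsd: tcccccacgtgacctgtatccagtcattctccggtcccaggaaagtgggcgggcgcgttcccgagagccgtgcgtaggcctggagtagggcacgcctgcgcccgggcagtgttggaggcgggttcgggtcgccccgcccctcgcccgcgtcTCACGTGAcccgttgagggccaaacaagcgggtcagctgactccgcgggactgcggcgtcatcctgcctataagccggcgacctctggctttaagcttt
Ctsa: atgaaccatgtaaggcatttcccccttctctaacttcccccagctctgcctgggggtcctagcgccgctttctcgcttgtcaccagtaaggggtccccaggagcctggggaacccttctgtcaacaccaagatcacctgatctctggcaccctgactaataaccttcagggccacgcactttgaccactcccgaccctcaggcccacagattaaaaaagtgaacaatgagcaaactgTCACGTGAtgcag
TCACGTGA reads the same on both strands and was in 0.785% of the 32851 windows. Of the 2 genes with it, Ctsa rose with the tumor and Ctsd did not pass. Windows were listed for 7 of the 10 genes, 8 windows in all, with none for Ctsb, Ctsh and Ctsw. The Ctsc window held 2 further searched motifs, a match to TTCNNNGAA, the spacing of STAT sites (236 to 228 bases before the start, 7.02% of windows), and GAGGAAGT, bound by PU.1, on the reverse strand (151 to 144 bases before the start, 2.44% of windows).

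Ctsk and Ctsl went the other way. Ctsk, the collagen and elastin degrading cathepsin of osteoclasts and fibroblasts, measured 2.51, 2.73, 3.00 and 2.33 FPKM in naive_untreated and 2.01, 2.31, 1.91 and 2.04 in tumor_untreated lungs, all lower than the naive ones. In limma its log2 difference was -0.29 ± 0.08 (adjusted p = 0.0112). Its level was 2.28, 2.50, 2.37 and 2.29 FPKM in naive_GEMy and 2.16, 3.08, 2.55 and 2.57 in tumor_GEMy lungs, neither of which differed from naive_untreated lungs past the threshold (adjusted p = 0.403 and 0.811). Against tumor_untreated lungs the tumor_GEMy level was 0.26 ± 0.08 higher, which missed the threshold (adjusted p = 0.0790) and passed it without replicate 1 of tumor_GEMy (log2 0.33) and narrowly under quantile normalization (log2 0.28, adjusted p = 0.0496). With replicate number in the fit that difference passed as well (adjusted p = 0.0344). Fibroblast markers moved with Ctsk in untreated mice: 6 of 7 fell with the tumor and 0 rose, and their summed level went from 205.9 to 294.4 FPKM in naive_untreated to 109.1 to 169.6 FPKM in tumor_untreated lungs. Markers of other lung tissue also fell there, and 27.2% of all genes were lower. The falls were 4 of 4 for airway, 5 of 7 for alveolar type 2, 3 of 5 for alveolar type 1 and 3 of 5 for endothelial cells. Of 3 osteoclast markers tested 1 rose and 0 fell. In tumor_GEMy lungs the fibroblast sum was 136.4 to 173.1 FPKM, and 0 of 7 passed against tumor_untreated lungs. Their part in the Ctsk result was not tested.

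Ctsl, a widely expressed cathepsin of protein turnover (chromosome 13, 64361890 to 64370520, minus strand), was highest in naive_untreated lungs at 24.1, 22.0, 23.0 and 23.5 FPKM. It was 21.4, 20.5, 21.1 and 19.5 in naive_GEMy, 22.3, 21.0, 20.3 and 18.5 in tumor_untreated and 19.1, 17.8, 19.3 and 17.9 in tumor_GEMy lungs. The lowest group, tumor_GEMy, did not overlap with naive_untreated or naive_GEMy lungs, and it lay below naive_untreated lungs by 0.31 ± 0.06 on the log2 scale (adjusted p = 0.00114). The fall in tumor_untreated lungs was smaller, 0.17 ± 0.06 on the log2 scale (adjusted p = 0.0356). It was lost under scaling by median of ratios (log2 -0.08, adjusted p = 0.270), with only these 8 lungs in the fit (adjusted p = 0.0940), and without any of replicates 1, 3 and 4 of naive_untreated or replicates 3 and 4 of tumor_untreated (adjusted p from 0.0568 to 0.118). The naive_GEMy difference of -0.16 ± 0.06 missed the threshold (adjusted p = 0.146), although the groups did not overlap, and it was -0.25 and passed under quantile normalization (adjusted p = 0.00951).

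Ctsh (chromosome 9, 90054267 to 90076095) had 0 called differences in limma, and 0 with an unadjusted p under 0.05. It measured 11.0, 9.93, 9.66 and 10.3 FPKM in naive_untreated, 10.5, 10.3, 9.62 and 10.1 in naive_GEMy, 13.5, 10.0, 9.59 and 9.77 in tumor_untreated and 12.3, 10.9, 12.0 and 9.61 in tumor_GEMy lungs. All groups overlapped, and the high value of replicate 1 set the tumor_untreated mean: the difference from naive_untreated lungs was 0.05 ± 0.10 (adjusted p = 0.673) with it and -0.06 ± 0.07 (adjusted p = 0.555) without it. Alveolar type 2 markers fell in the same comparison for 5 of 7 genes, from a summed level of 5821 to 6387 FPKM to one of 3853 to 4963 FPKM.

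In tumor_untreated against naive_untreated lungs 8 of 10 passed an adjusted p of 0.05 in limma, 6 higher (Ctss, Ctsw, Ctsb, Ctsc, Ctsz and Ctsa) and 2 lower (Ctsk and Ctsl). The background was high, since 44% of the 10284 genes tested passed in that comparison, 16.9% higher and 27.2% lower. The median difference of the 10 was 0.26, beside -0.05 for all genes tested. Ctsb and Ctss were higher without overlap, as were 14.1% of all genes, and Ctsk was lower without overlap, as were 24.1%. Over all genes the split of 1733 higher and 2797 lower became 2422 and 1734 under scaling by median of ratios, and the cathepsin split became 6 and 1.

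In naive_GEMy against naive_untreated lungs 2 of 10 passed, Ctsw and Ctss, both higher, beside 7.1% of all genes, 5.6% higher and 1.5% lower. Under quantile normalization 3 passed, with Ctsl lower. Without replicate 1 of tumor_untreated, which enters the shared spread, 4 passed, and 1 passed without replicate 1 of naive_untreated or replicate 4 of naive_GEMy. Ctsc, Ctss, Ctsw and Ctsz were higher without overlap (10.1% of all genes) and Ctsl lower (8.1%). In tumor_GEMy against tumor_untreated lungs 1 of 10 passed, Ctsb, lower, beside 6.73% of all genes, 3% higher and 3.72% lower. Ctsw was higher and Ctsa lower without overlap (4.7 and 4.8% of all genes). That count was 2 without replicate 1 of tumor_untreated, with Ctsa, or without replicate 1 of tumor_GEMy, with Ctsk. The members' medians were 0.07 and -0.03 in these comparisons, beside -0.02 and -0.01 for all genes. The comparisons share control groups, so their values are given side by side only.

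**Figure D2:**
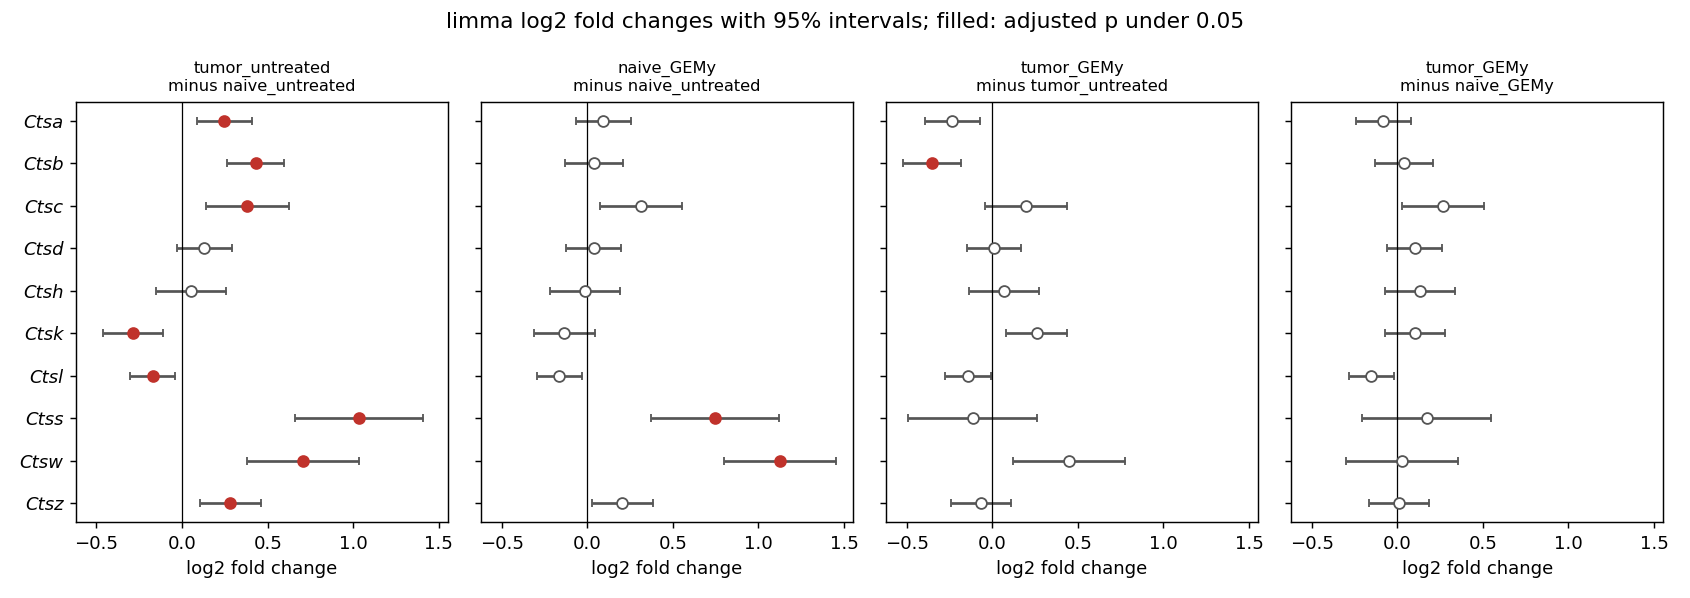
limma log2 fold changes of the 10 cathepsins, on a shared axis, in 4 comparisons of lung groups (n = 4 each); points are estimates, bars 95% intervals, and filled points have an adjusted p under 0.05. Filled points number 8, 2, 1 and 0 from left to right, with Ctss at 1.03 in the first panel, Ctsw at 1.13 in the second and Ctsb at -0.35 in the third.

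Among treated mice no cathepsin separated tumor-bearing from naive lungs past the threshold. In tumor_GEMy against naive_GEMy lungs 0 of 10 passed in limma, beside 13.2% of all genes (4.03% higher, 9.17% lower), and 2 of 10 had an unadjusted p under 0.05. These were Ctsc, higher by 0.27 (adjusted p = 0.128), and Ctsl, lower by 0.15 on the log2 scale (adjusted p = 0.117), without overlap in either gene (5.91% of all genes were higher and 15.1% lower without overlap). Ctsc passed without replicate 1 of tumor_untreated (adjusted p = 0.0426) and with only the compared groups in the fit (adjusted p = 0.0405). Ctss, which differed by 1.03 between untreated tumor-bearing and naive lungs, differed by 0.17 here (95% interval -0.20 to 0.55, adjusted p = 0.541). In tumor_GEMy against naive_untreated lungs 4 passed, Ctsw, Ctss and Ctsc higher and Ctsl lower, beside 39.3% of all genes, 13.6% higher and 25.6% lower. Without replicate 1 of tumor_untreated 5 passed, with Ctsz. Ctsz joined these 4 among genes whose groups did not overlap (13.5% of all genes higher, 26.5% lower). In naive_GEMy against tumor_untreated lungs only Ctsb passed, lower, beside 22.7% of all genes and 8.61% lower. Its groups did not overlap (8.58% of all genes lower). Without replicate 1 of tumor_untreated 3 passed there, Ctsb, Ctss and Ctsa, all lower in naive_GEMy lungs, and 2 passed without replicate 3 of naive_GEMy or replicate 3 of tumor_untreated, Ctsb lower and Ctsw higher. The splits of all genes moved under scaling by median of ratios from 1403 higher and 2635 lower to 1999 and 1351 in tumor_GEMy against naive_untreated, from 1450 and 885 to 847 and 1153 in naive_GEMy against tumor_untreated, and from 414 and 943 to 544 and 392 in tumor_GEMy against naive_GEMy. Quantile normalization gave 527 and 658 in the last of these and moved naive_GEMy against naive_untreated from 576 and 154 to 487 and 290.

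The interaction asks whether IL12-GEMys changed a gene differently in tumor-bearing than in naive lungs, as the treatment difference in tumor-bearing lungs minus that in naive lungs. With all 16 lungs 0 of 10 cathepsins passed in limma, beside 6.26% of all genes (1.04% higher, 5.22% lower), and 6 of 10 had an unadjusted p under 0.05. The values nearest the threshold were Ctsb at -0.39 ± 0.11 (adjusted p = 0.0509), Ctss at -0.86 ± 0.25 (adjusted p = 0.0527) and Ctsk at 0.39 ± 0.12 (adjusted p = 0.0610). Without replicate 1 of tumor_untreated 5 passed, all negative. They were Ctss at -1.09 ± 0.16 (adjusted p = 0.000455), Ctsb at -0.48 ± 0.09 (adjusted p = 0.00187), Ctsw at -0.84 ± 0.18 (adjusted p = 0.00512), Ctsz at -0.37 ± 0.09 (adjusted p = 0.0130) and Ctsa at -0.38 ± 0.10 (adjusted p = 0.0195). For these 5 genes, the treatment difference in tumor-bearing lungs then lay below that in naive lungs. The library left out had been set apart for its low Ctss, Ctsw, Ctsb and Ctsz, and its Ctsa was also the lowest of its group. Leaving it out raises the tumor_untreated means of these genes, so the 5 calls partly follow from that choice. Ctsd, Ctsh and Ctsl had values within 0.20 of 0 in both fits. Leaving out replicate 4 of tumor_GEMy gave 2 calls (Ctsb and Ctss), and leaving out replicate 4 of naive_untreated (Ctsk), replicate 3 of naive_GEMy (Ctsw) or replicate 1 of tumor_GEMy (Ctsk) gave 1 each. With replicate number in the fit Ctsk, Ctss and Ctsw passed (adjusted p = 0.0267, 0.0207 and 0.0422). Over all genes the interaction split of 107 higher and 537 lower became 223 and 406 under quantile normalization.

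**Figure D3:**
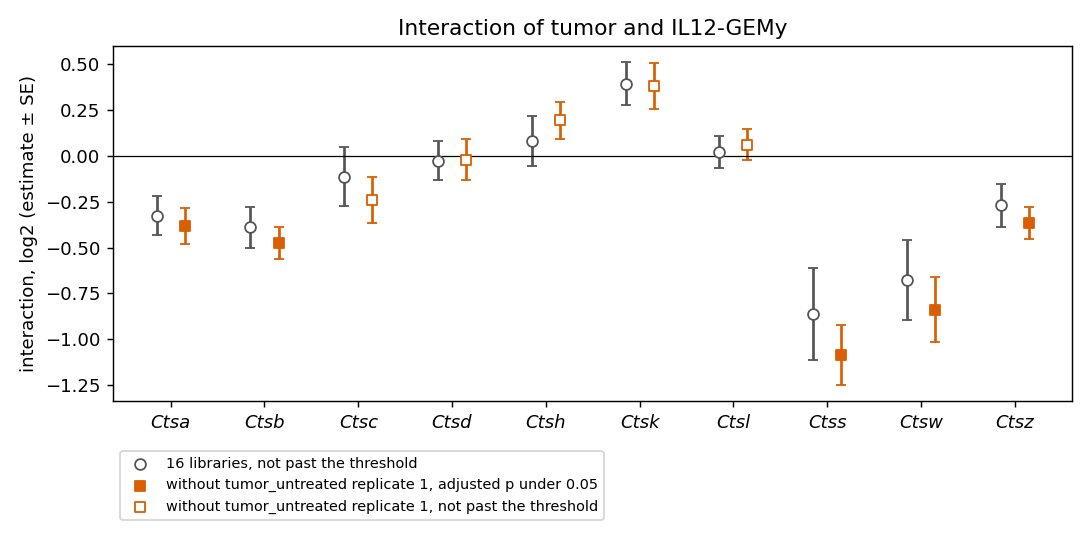
Interaction of tumor and IL12-GEMy for the 10 cathepsins, on the log2 scale with SE bars; grey circles are the fit over 16 lungs and orange squares the fit without replicate 1 of tumor_untreated, filled where the adjusted p was under 0.05. All grey circles are open, and the squares of Ctsa, Ctsb, Ctss, Ctsw and Ctsz are filled and lie below 0. Replicate 1 was set apart for low values of these same genes, so the filled squares partly follow from leaving it out.

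The injected cell product, bone marrow cells transduced with a lentiviral vector and grown with SCF, FLT3L and IL-6, was rich in the degradative cathepsins. Its 10 genes together took 0.740% of reads, above all lung libraries. Ctsd stood at 114 FPKM, Ctsb at 76.5, Ctsz at 70.5, Ctsa at 65.2, Ctsc at 38.0 and Ctss at 37.8, each above the highest lung library. Against naive_untreated lungs Ctss was 5.76 times, Ctsc 4.64 times and Ctsz 4.40 times as high, while Ctsd was 1.76 times and Ctsl, at 24.2 FPKM, 1.04 times as high. Ctsh, at 6.21 FPKM, was 0.608 times the naive_untreated mean and below every lung library. Ctsk and Ctsw were near 0, with 31 reads (0.0979 FPKM, exact 95% Poisson interval 0.0665 to 0.139) and 17 reads (0.158 FPKM, interval 0.0919 to 0.252). The product is 1 library, so these ratios have no replicate check and no test, and the intervals cover counting error only. The 7 fibroblast markers summed to 0.272 FPKM in it, with Col3a1, Pdgfra, Dcn and Mfap4 listed at 0. The 7 alveolar type 2 markers summed to 20.7 FPKM, with Sftpb, Sftpa1 and Slc34a2 listed at 0 and Sftpc at 0.0307 FPKM, and Napsa, at 19.2 FPKM beside 31.0 in naive_untreated lungs, made up most of that sum. The 5 endothelial markers summed to 2.72 FPKM and the 5 B cell markers to 5.17 FPKM. Its granule proteases were abundant, with Ctsg at 146, Elane at 137.1 and Prtn3 at 114.3 FPKM, the latter pair named after their values were seen. Ctsb, at 1.95 to 2.66 times the lung group means in the product, fell in tumor_GEMy lungs and did not pass in naive_GEMy lungs, and Ctsw, near 0 in the product, rose in naive_GEMy lungs. Ctss, Ctsc and Ctsz, with the highest product ratios to naive_untreated lungs, were higher without overlap in naive_GEMy lungs (10.1% of all genes). Of these only Ctss passed. Ctsa and Ctsd, also above the lung range in the product, overlapped between naive_GEMy and naive_untreated lungs. How much product RNA the treated lungs held was not tested.

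**Figure D4:**
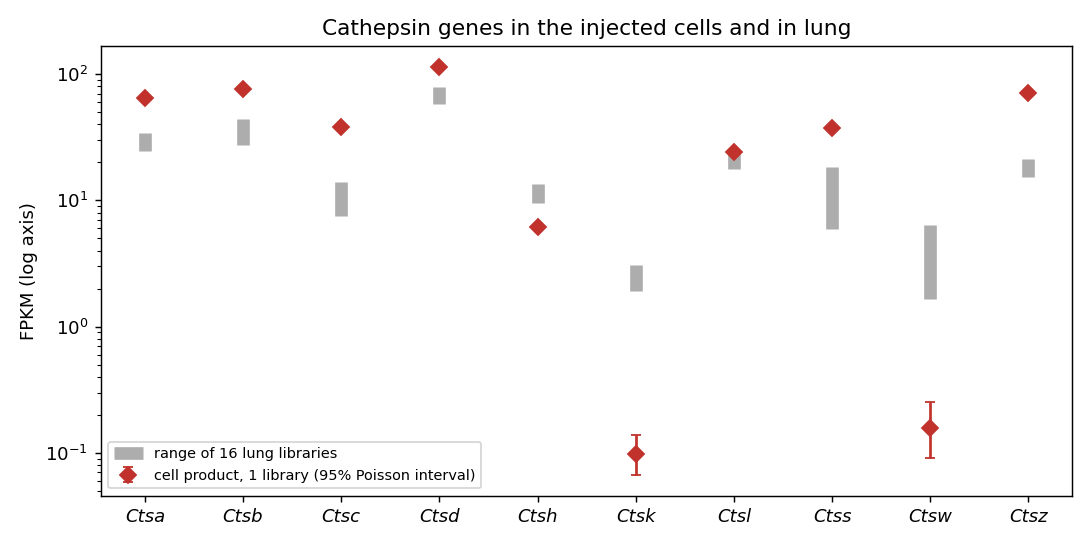
FPKM of the 10 cathepsins on a log axis; the grey bar spans the 16 lung libraries and the red diamond is the single product library with its exact 95% Poisson interval. Ctsa, Ctsb, Ctsc, Ctsd, Ctss and Ctsz lie above the lung range in the product, Ctsl at its top, Ctsh below it, and Ctsk (0.0979) and Ctsw (0.158) far below it.

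Other lysosomal genes rose and fell with the tumor, in a comparison in which 16.9% of all genes tested were higher and 27.2% lower. Whether any list differed from these shares was not tested. Of 28 lysosomal hydrolases tested, 10 rose and 4 fell in tumor_untreated against naive_untreated lungs, with a median of 0.05. Gm2a, the GM2 ganglioside activator, rose most, to 22.2 ± 3.30 from 13.3 ± 0.675 FPKM (log2 0.70, adjusted p = 6.85e-05), and Sgsh, a heparan sulfatase, fell most, to 4.10 ± 0.603 from 5.95 ± 0.477 FPKM (log2 -0.49, adjusted p = 0.000362). Among 14 lysosomal membrane proteins 3 rose and 4 fell. Slc11a1, the phagosomal metal exporter of macrophages and neutrophils, rose to 5.59 ± 0.841 from 1.19 ± 0.102 FPKM (log2 1.84, adjusted p = 1.18e-07), and Laptm4b fell (log2 -0.26, adjusted p = 0.00350). Of 17 subunits of the vacuolar ATPase, the proton pump that acidifies the lysosome, 5 rose and 1 fell. Tcirg1, its macrophage and osteoclast subunit, rose by 0.33 (adjusted p = 0.0204), and Atp6v0a1 fell (log2 -0.18, adjusted p = 0.0447), a call lost under median of ratios (adjusted p = 0.279). Under that scaling the counts were 13 up and 3 down for hydrolases, 4 and 1 for membrane proteins and 7 and 0 for the ATPase. Over all 10249 genes tested under it they were 2422 up and 1734 down.

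In tumor_untreated against naive_untreated lungs, lysosomal sorting receptors and their enzymes had 0 rises and 2 falls among 6 genes, the larger in Sort1, sortilin (log2 -0.39, adjusted p = 0.00117). Over all genes 16.9% were higher and 27.2% lower there. Of the TFEB family 2 of 4 genes were tested and 1 rose, Tfe3 (log2 0.21, adjusted p = 0.0189). Among 6 other lysosomal proteases 2 rose and 2 fell, with Prcp up by 0.26 (adjusted p = 0.0168) and Tpp1 down by 0.24 on the log2 scale (adjusted p = 0.00193). The other cathepsins in the table numbered 4, of which 3 were tested: Ctsg rose, Ctsf fell to 2.80 ± 0.718 from 4.01 ± 0.491 FPKM (log2 -0.47, adjusted p = 0.00671), and Ctso differed by a log2 of 0.01 (adjusted p = 0.913). Ctsg lay under the 0.5 FPKM minimum in all naive_untreated lungs and was tested because of higher levels elsewhere. Its rise was thus partly fixed by the minimum. The medians of these lists lay between -0.08 and 0.17, beside 0.26 for the 10 cathepsins and -0.05 for all genes.

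Inhibitors of cathepsins, the cystatins, stefins and some serpins, were tested for 9 of 16 genes. With the tumor 4 rose and 1 fell, beside 16.9% of all genes higher and 27.2% lower. However, 3 of the 9, Cst7, Stfa2l1 and Serpina3g, lay under the 0.5 FPKM minimum in all naive_untreated lungs and were tested because of higher levels elsewhere. Stfa2l1, a stefin, had the largest rise, to 3.97 ± 0.0658 from 0.153 ± 0.0454 FPKM (log2 2.78, adjusted p = 3.40e-09), and Serpinb6a fell (log2 -0.24, adjusted p = 0.00543). The stefins are near-identical copies, so how reads were divided among them is uncertain. In tumor_GEMy against tumor_untreated lungs Stfa2l1 fell to 2.26 ± 0.869 FPKM (log2 -0.75, adjusted p = 0.00402), and Serpina3g, a serpin that inhibits cysteine cathepsins, rose to 6.62 ± 1.29 from 2.28 ± 0.826 FPKM (log2 1.39, adjusted p = 0.000334). The largest falls past the threshold of their lists in that comparison were those of Lgmn, the legumain protease that processes cathepsins, by 0.32 (adjusted p = 0.0157), Gm2a by 0.39 (adjusted p = 0.0280) and Slc11a1 by 0.75 (adjusted p = 0.00383), all on the log2 scale. None of these passed with only the 8 tumor-bearing lungs in the fit (adjusted p = 0.0795, 0.173 and 0.0539), nor did Stfa2l1 (adjusted p = 0.0610), and Gm2a was also lost under quantile normalization (adjusted p = 0.0668). Gm2a missed the threshold without replicate 2, 3 or 4 of tumor_untreated or replicate 1, 2 or 3 of tumor_GEMy (adjusted p from 0.0565 to 0.0982), and Lgmn without replicate 2 (adjusted p = 0.0598) or replicate 3 (adjusted p = 0.0558) of tumor_untreated. In the lists as a whole, 1 of 6 other lysosomal proteases, 2 of 28 hydrolases and 1 of 14 membrane proteins fell and 0 rose. Of 17 ATPase subunits and 6 sorting genes 0 fell and 0 rose. Over all genes tested 3% were higher and 3.72% lower in that comparison. In naive_GEMy against naive_untreated lungs, 1 of 28 hydrolases, 3 of 14 membrane proteins, 1 of 17 ATPase subunits and 2 of 9 inhibitors rose and 0 fell, while of 6 other lysosomal proteases 1 rose and 1 fell. Over all genes 5.6% were higher and 1.5% lower there. Under quantile normalization 0 hydrolases rose and 1 fell, and 1 membrane protein and 1 inhibitor rose.

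**Figure D5:**
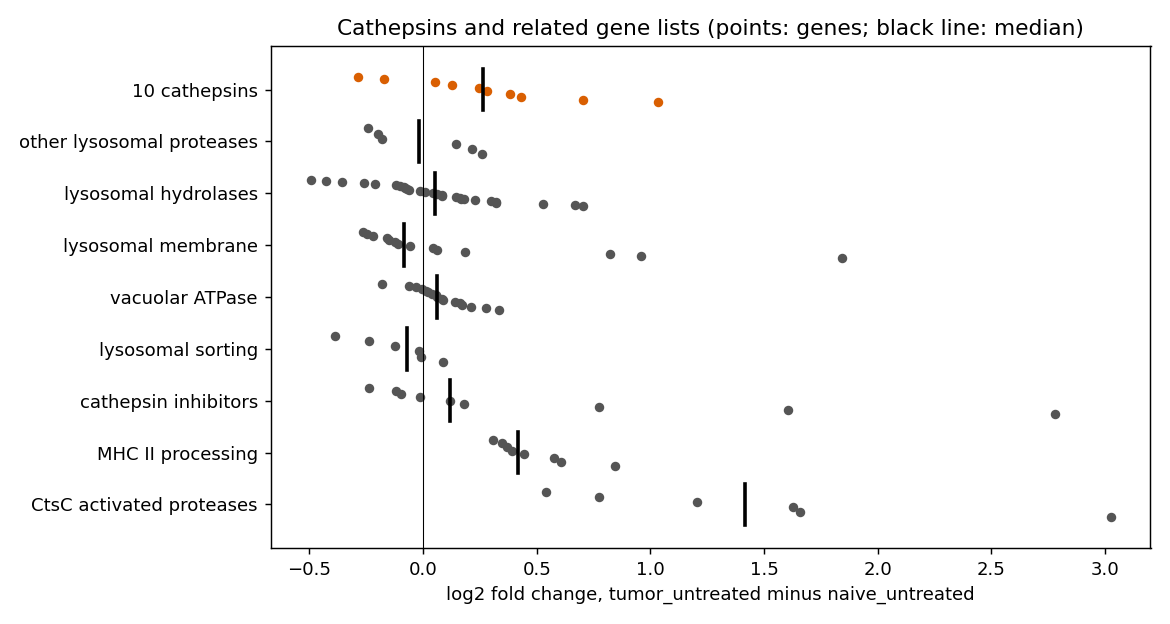
log2 fold change of each tested gene, tumor_untreated minus naive_untreated, for the 10 cathepsins (orange) and 8 related gene lists (grey); the short black line is the list's median and the long line marks 0. The cathepsin median is 0.26, the medians of hydrolases and the vacuolar ATPase are 0.05 and 0.06, and the MHC II processing genes and the proteases activated by cathepsin C lie wholly above 0, with medians of 0.42 and 1.42; for the latter list the minimum on FPKM partly fixed this.

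The cathepsins did not vary as 1 block between libraries of the same group. Within groups, over the 16 lungs, Ctsc and Ctss deviated together (Pearson r = 0.89), as did Ctsa and Ctsb (r = 0.85) and Ctsb and Ctsz (r = 0.83), while Ctss ran against Ctsh (r = -0.88) and Ctsl (r = -0.82). Without replicate 1 of tumor_untreated these values were 0.74, 0.82, 0.51, -0.69 and -0.78 over 15 lungs, and Ctss and Ctsz went from 0.59 to -0.17. The points share libraries and their depth, and 5 pairs were picked from 45 after seeing their values. The genes most like each member over the 16 lungs differed by member. For Ctss they were Ms4a4c (r = 0.986) and Gpr141 (r = 0.985), for Ctsb Marcksl1 (0.966) and Cd300e (0.938), for Ctsc Samd9l (0.967) and Snx10 (0.965), and for Ctsz Erp29 (0.958) and Cfl1 (0.935). Likeness was weakest for Ctsk, whose nearest genes were Zfp750 (0.796) and Anxa4 (0.794), and for Ctsd, with Ppp1ca (0.853). Ctsa was most like B4galnt1 (0.937) and Csk (0.922), Ctsh most like Qsox1 (0.936) and Sult1a1 (0.927), and Ctsl most like Pja1 and Lurap1l (both 0.945).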

How the data were processed

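Bulk RNA was sequenced as 16 mouse lung libraries, called lungs here, and 1 cell product library. The authors deposited FPKM, and Partek, STAR 2.7.3a and the mm10 build appear in the submitters' processing notes; the gene annotation and settings are not given in the sources used here. FPKM times genomic span summed to 1000000 reads in every column, so reads were recovered from the smallest step, with 86.6 to 88.5% of values under 1000 reads whole within 0.02. Lung values were put on a log2 scale after adding 0.5 FPKM, and the 10284 genes that reached 0.5 FPKM in 4 or more lungs were tested. limma 3.58.1 in R 4.3.3, with trend and robust moderation, fitted the 4 group means over 16 lungs and gave 2-sided tests of 6 pairs of groups and the interaction, with Benjamini-Hochberg adjustment over all genes in each comparison and a threshold of 0.05. Fold changes on this scale understate those of low genes. Tested on simulated data for tumor_untreated against naive_untreated with 10284 genes, this fit recovered 91% of 100 changes of 1.5-fold and 98% of 100 of 2-fold, with 8 false calls. The simulated noise was normal and independent, with 1 spread per gene in all groups, and the folds were planted on the log2 scale after adding 0.5 FPKM. It does not cover outlying libraries, unequal spread between groups or genes that vary together. Levels between genes used reads per kilobase of the shortest principal transcript in GENCODE M21. The 10 cathepsins and all gene and marker lists were chosen with earlier results of these data known. Named from each related list were its largest rise and fall past the threshold in tumor_untreated against naive_untreated and in tumor_GEMy against tumor_untreated, and for each cathepsin the 2 genes with the highest correlation over 16 lungs, of which 1 is not reported here. Replicates of a group correlated at 0.973 to 0.997, and no pair was a duplicate. The labels name no batch; the sample descriptions carry a 1 in all untreated and a 2 in all treated tumor-bearing lungs, whose meaning is not stated and which cannot be told apart from treatment. Replicate numbers were not treated as pairs, since the labels name no pairing. Same-numbered libraries did deviate together more than others (median correlation 0.123 against -0.054), so a fit with the replicate block is given as an alternative. Alternatives varied the pseudocount, minimum, scaling, samples in the fit, replicate block and length, and left out each library in turn.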

Additional observations from a re-analysis of the deposited data

Results flagged for a closer look

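Ctsh in tumor_untreated lungs had 1 library far above the rest, replicate 1 at 13.5 FPKM (the other 3 lay at 9.59 to 10.0). Ctsz in the same group had that library far below the rest, at 16.0 FPKM (the other 3 lay at 20.7 to 21.1). These were 2 of 40 groups of 4 examined, and chance flags about 1 in 20 groups. The same library held the lowest Ctss (8.50 FPKM), Ctsw (2.51 FPKM), Ctsb (32.4 FPKM), Ctsc (8.18 FPKM) and Ctsa (27.7 FPKM) of its group.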

How the results depend on the processing

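Of 70 cathepsin results, 16 were called. Of these, 11 kept direction and call under all 25 alternatives (9 settings and 16 left-out libraries) and 5 lost the call under some, as given beside each. Of the 54 not called, 17 were called under some alternative, and 0 called values changed sign. In tumor_untreated against naive_untreated and tumor_GEMy against naive_untreated lungs, the counts of cathepsins and of all genes past the threshold stayed within 1.5 times. Of the 23 results named from related lists, 14 kept direction and call under all 25 alternatives and the other 9 lost the call under some without a change of sign: Gzma, Lgmn, Stfa2l1, Slc11a1 and Gm2a in tumor_GEMy against tumor_untreated, and Prcp, Tcirg1, Tfe3 and Atp6v0a1 in tumor_untreated against naive_untreated lungs.

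In the interaction, the cathepsin count of 0 became 2 with a pseudocount of 0.1 or a minimum of 1 FPKM, 1 under median of ratios, quantile normalization or reads per 1000000, and 0 to 5 without single libraries, and the count of all genes went from 644 to between 383 and 1256. Naive_GEMy against naive_untreated gave 1 to 4 cathepsins and 472 to 1006 genes without single libraries, beside 2 and 730. Tumor_GEMy against tumor_untreated gave 1 to 2 cathepsins and 452 to 913 genes, beside 1 and 692, and 2 cathepsins under quantile normalization. Tumor_GEMy against naive_GEMy gave 0 to 1 cathepsins and 641 to 1892 genes, beside 0 and 1357. Naive_GEMy against tumor_untreated gave 1 to 3 cathepsins and 1543 to 3105 genes, beside 1 and 2335. With only the compared groups in the fit, naive_GEMy against naive_untreated had 1188 genes, naive_GEMy against tumor_untreated 1498, tumor_GEMy against tumor_untreated 210 with 0 cathepsins, and tumor_GEMy against naive_GEMy 1 cathepsin. The cause was not tested.

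The labels do not say that replicate numbers mark pairs. Same-numbered libraries deviated with correlations of -0.313 to 0.594 (median 0.123, 12 of 24 over 0.1), beside a median of -0.054 and 21 of 72 over 0.1 for other numbers, and 10 of 16 libraries correlated best with their own number, a hint of pairing from the data and not the design. With the replicate block, the cathepsin count was 3 in the interaction (Ctsk, Ctss and Ctsw, adjusted p = 0.0267, 0.0207 and 0.0422), 2 in tumor_GEMy against tumor_untreated (Ctsb, and Ctsk with adjusted p = 0.0344) and 2 in naive_GEMy against tumor_untreated (Ctsb and Ctsw), and it changed no other cathepsin call.

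Depth limits only Ctsk and Ctsw, and those mainly in the product (31 and 17 reads). The product has 1 library.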
